A study of Mus musculus with 12 samples.

Results

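The 8 genes described here encode the colony-stimulating factors and their receptors. They are the ligands M-CSF (Csf1), GM-CSF (Csf2) and G-CSF (Csf3) and the receptor chains Csf1r, Csf2ra, Csf2rb, Csf2rb2 and Csf3r, taken by gene symbol from the 22243 genes of the table of transcript abundances. All 8 genes were present, with 12 transcripts between them, and all 8 had a mean of at least 1 TPM (transcript abundance scaled so that all transcripts of a library have the same total) over the 12 libraries, the level required for testing. Bulk RNA sequencing had been made of bone marrow-derived macrophages (BM-Mɸs) of C57Bl/6 background from 6 ErbB4myeKO mice (LysMCre with floxed ErbB4) and 6 ErbB4FF mice (floxed ErbB4 without Cre), with 1 animal of each genotype from each of 6 litters. Every culture had been grown in CMG14-12 conditioned medium at 1 in 20 as the source of M-CSF. Every culture had then received 100 U/mL IFN-γ for 16 h and 100 ng/mL LPS for 6 h, the treatment called M1 activation. No library came from unstimulated cells or from cells grown without M-CSF, so the values describe the 2 genotypes in 1 activated state.

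Colony-stimulating factors are secreted proteins named for the colonies of blood cells that they let grow from bone marrow in culture. M-CSF signals through a receptor tyrosine kinase that is encoded by Csf1r and carried by nearly all macrophages. GM-CSF binds a specific alpha chain, Csf2ra, which signals through a beta chain that it shares with the receptors of IL-3 and IL-5. Mice have a duplicated beta chain, with Csf2rb as the common chain and Csf2rb2 as a copy that serves the IL-3 receptor. G-CSF acts through a homodimer of Csf3r and is best known for the production of neutrophils. In macrophages, LPS is a textbook inducer of all 3 ligands.

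Some features of the libraries bear on all 8 genes. TPM carry no read depth, so precision was taken from the spread between litters. In LysMCre mice Cre is expressed from the Lyz2 locus in myeloid cells. Erbb4 itself was between 0.28 and 0.852 TPM in libraries labelled ErbB4myeKO and between 0.372 and 0.716 TPM in those labelled ErbB4FF, and it was higher in the ErbB4myeKO library of 4 of 6 litters (exact permutation over genotype swaps within litters, p = 0.25). A sum over whole transcripts does not show which exons were read, and the sources used here do not say which exon is removed, so this level did not check the genotype and the groups are named as labelled. All 7 macrophage markers passed the filter, and by limma's log2 difference 3 were higher and 4 lower in ErbB4myeKO. Their summed TPM was 8010 to 12200 in ErbB4myeKO and 6850 to 15800 in ErbB4FF, lower in ErbB4myeKO in 5 of 6 litters. Adgre1, which encodes F4/80, was 662 to 1060 TPM, whereas the Fc receptor gene Fcgr1 was 114 ± 68.1 TPM in ErbB4myeKO and 212 ± 120.3 TPM in ErbB4FF (SD, n = 6) and lower in 6 of 6 litters (exact permutation p = 0.0312; limma adjusted p = 0.603). The receptor kinase gene Mertk was 122 ± 58.0 and 113 ± 56.7 TPM (SD, n = 6) and higher in 6 of 6 litters. Lyz2, on average the largest contributor to the sum, was lower in ErbB4myeKO in litters 1 to 5 but not in litter 6, where it was 8000 against 2960 TPM (exact permutation over 6 litters, p = 0.219). Litter 6 also had the largest Csf1 ratio given below (1.53 on the log2 scale). Whether the 2 labels of litter 6 are the right way round was not tested, nor was the part of these markers in the results on the family. Lymphocyte markers summed to at most 3.49 TPM over 10 genes. The summed TPM of 4 Y-linked genes was 0.202 to 0.406 in the 4 libraries of litters 5 and 6 and 36.1 to 49.2 in the 8 libraries of litters 1 to 4. The labels do not give sex, and sex and litter cannot be told apart in this design, although littermates were alike in this sum in every litter.

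The family covered a wide range of levels, and over the 12 libraries the mean of every receptor was above that of every ligand. Within ErbB4myeKO this did not hold for G-CSF, where Csf3 had a mean of 54.0 TPM and Csf3r one of 41.8 TPM, against 43.1 and 59.8 TPM in ErbB4FF. TPM are scaled by transcript length, so the listed levels of different genes can be set beside each other within a library. They are sums over principal transcripts alone, so what was assigned to other transcripts of a gene is left out of the order. Mean levels over the 12 libraries were 347.4 TPM for Csf1r, 122.0 TPM for Csf2ra, 121.2 TPM for Csf2rb, 111.0 TPM for Csf2rb2 and 50.8 TPM for Csf3r among the receptors. Among the ligands they were 48.6 TPM for Csf3, 25.9 TPM for Csf1 and 2.16 TPM for Csf2. Of 8780 genes tested, Csf1r had rank 316 by mean TPM, whereas Csf2 had rank 7480. The steps from Csf1r to Csf2ra, from Csf2rb2 to Csf3r and from Csf1 to Csf2 had the same direction in all 12 libraries (two-sided exact permutation over 6 litters, p = 0.0312 for each, the smallest that 6 litters allow, and 0.0728 after adjustment over the 7 neighbouring pairs). Csf2ra exceeded Csf2rb in only 7 of 12 libraries, and Csf3r exceeded Csf3 in 7 of 12, so the mean order did not hold in every library and these neighbours did not differ beyond their spread over litters (p = 0.938 and p = 0.594, exact permutation).

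**Figure D1:**
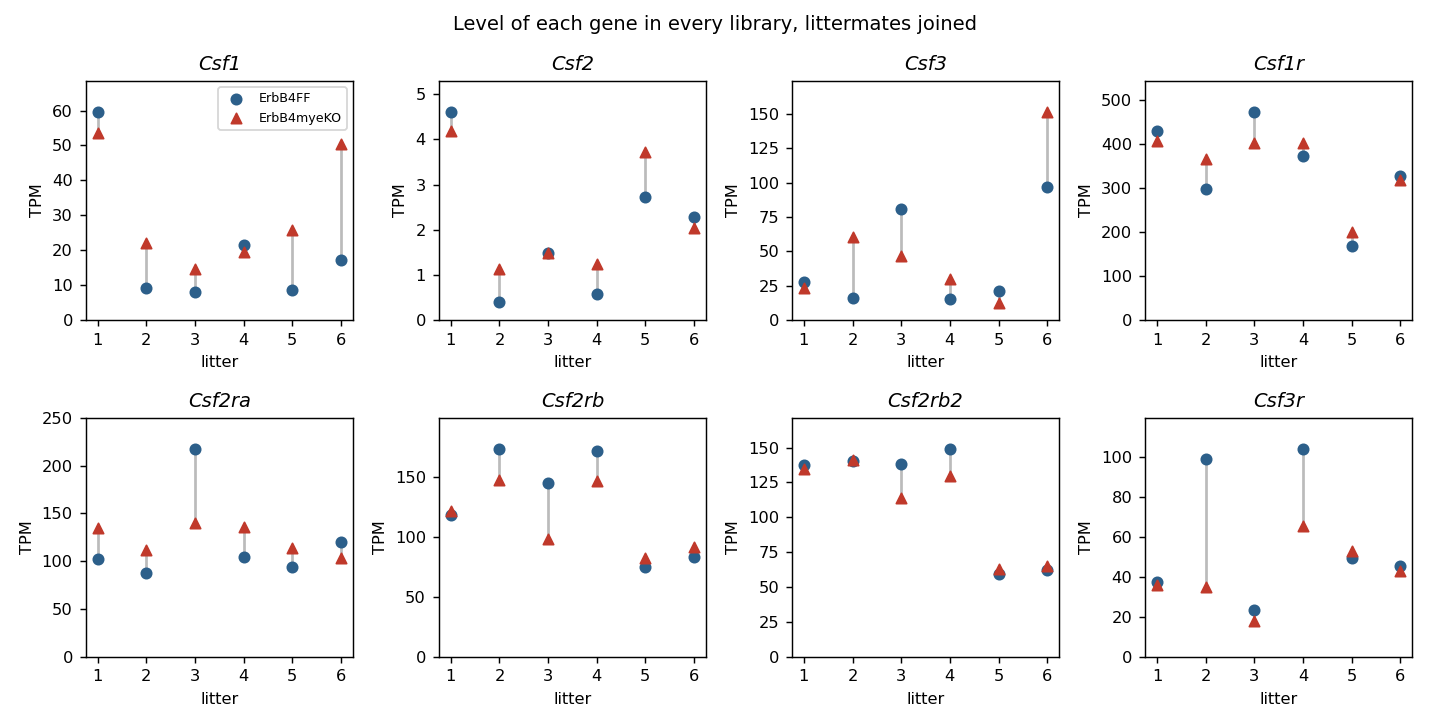
Level of each colony-stimulating factor and receptor gene in TPM (y axis, linear, starting at 0) in every library, by litter (x axis), with ErbB4FF as blue circles, ErbB4myeKO as red triangles and littermates joined by a line. Littermates lie close together for Csf1r and Csf2rb2, while Csf1, Csf3 and Csf3r have long lines in single litters.

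No gene of the family passed the threshold for a difference between genotypes. None of the 8 had an adjusted p under 0.05 in limma with litter as a block (log2 of TPM plus 0.5), where 0% of the 8780 genes tested passed and the smallest adjusted p of any gene was 0.603. At an unadjusted p under 0.05, 1 of the 8 genes was called (Csf1), beside a background of 721 genes or 8.21%. Without the litter block, 75 genes were called in this way and Csf1 was not among them. Csf3r was the 1 member that went the same way in at least 5 litters, against 28.2% of all genes tested, and no member did so in all 6 litters, against 4.82%. The libraries of the 2 genotypes overlapped for every member, as they did for all but 0.0456% of genes.

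**Figure D2:**
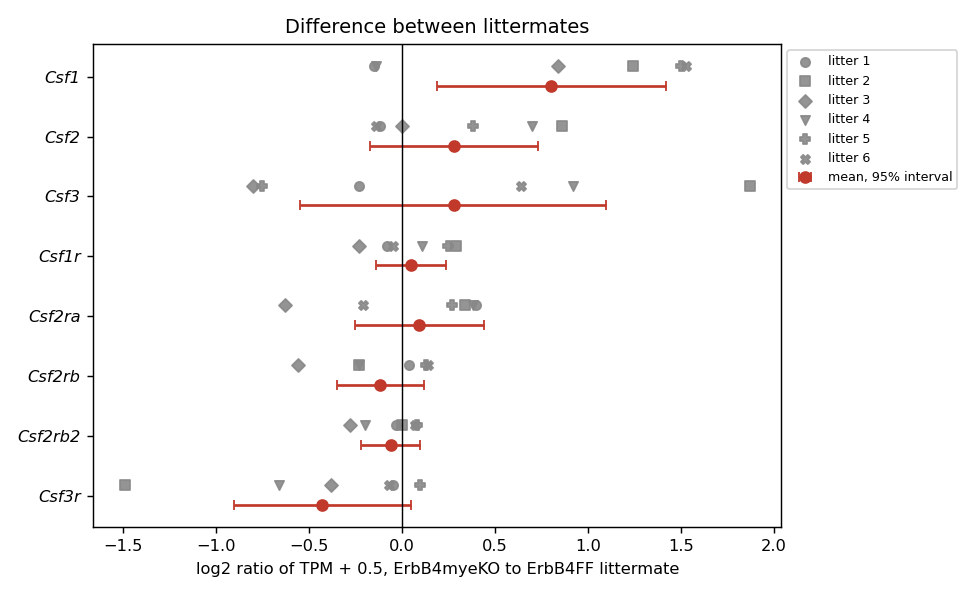
Log2 ratio of TPM plus 0.5 between the ErbB4myeKO and the ErbB4FF library of each litter (grey symbols, 1 shape for each litter) and limma's mean with its 95% interval (red) for the 8 genes. The interval of Csf1 lies above 0 (0.19 to 1.42) before adjustment for 8780 genes, and those of the other 7 genes span 0.

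Csf1, whose product keeps macrophages alive and dividing, had the largest difference of the family. In the ErbB4FF libraries its lowest, median and highest levels were 8.0, 13.2 and 59.5 TPM. In the ErbB4myeKO libraries they were 14.7, 24.0 and 53.5 TPM. Group means were 20.7 ± 19.8 and 31 ± 16.6 TPM (SD, n = 6). The groups overlapped, since litter 1 was the highest in ErbB4FF and in ErbB4myeKO alike and had the 2 highest values of all 12. The log2 ratio of ErbB4myeKO to ErbB4FF was 1.24, 0.84, 1.5 and 1.53 in litters 2, 3, 5 and 6 and -0.15 and -0.14 in litters 1 and 4. Thus 4 litters differed strongly in 1 direction, and the other 2 had nearly equal littermates. The mean was 0.80 ± 0.78 (SD over 6 litters; exact permutation p = 0.125), which on the scale of TPM plus 0.5 was 1.74-fold with a 95% interval of 1.14 to 2.67 (limma p = 0.0174, adjusted p = 0.603). Of the 8780 genes tested, 3.05% had a larger size of change. Without litter 5 or without litter 6 it was 0.66 on the log2 scale, and with litters 1 to 4 alone it was 0.44, and in each of these fits it was no longer under the unadjusted threshold.

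Of all marker lists compared, the level of Csf1 moved most closely with that of stromal cells, which is given for that reason. The summed TPM of 8 fibroblast and stroma markers, to which Col1a1 and Col1a2 contributed most, was 9.28 to 106 in ErbB4myeKO and 15.9 to 98.9 in ErbB4FF. None of the 8 markers was at 0 in every library, whereas Lum and Pdgfra were at most 0.395 and 1.0 TPM. Across the 12 libraries, which share litters, the log2 level of Csf1 had r = 0.77 and rho = 0.88 with this sum, but the 2 moved in the same direction between littermates in only 4 of 6 litters. In litter 3, Csf1 was higher in ErbB4myeKO (14.7 against 8.0 TPM) where the stromal sum was lower (9.28 against 20.3 TPM). Csf2 had r = 0.58 and rho = 0.62 with the same stromal sum. The part of the stromal markers in the difference of Csf1 was not tested. In RNA from a whole culture, fewer cells of a type and less RNA per cell cannot be told apart.

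By Pearson r over the 12 libraries, the genes with a log2 level most like that of Csf1 were Col8a1 (r = 0.946), which encodes a short-chain collagen, Tnfrsf11b (r = 0.945), which encodes the decoy receptor osteoprotegerin, and Vcl (r = 0.931), which encodes the adhesion protein vinculin. Their own levels were low, between 0.226 and 11.1 TPM over the 3 genes. Tnfrsf11b was 6.03 TPM at its highest, in the ErbB4FF library of litter 1. That library was also the highest for Csf1 and for Col8a1.

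The Csf1 level was the sum of 2 principal transcripts with the same coding sequence of 1659 bases. ENSMUST00000014743, with a 3′ UTR of 2111 bases, held 80.8% of the gene's TPM, and ENSMUST00000120243, with a 3′ UTR of 259 bases, held 19.2%. The short form was listed at 0 in the ErbB4myeKO library of litter 3, while in its ErbB4FF littermate it was 4.71 TPM against 3.29 TPM of the long form. Of the 31-base words of the 2 forms, 94.5% and 88.1% occurred in some other annotated transcript of Csf1, principal or not. The gene lies at chr3:107741048-107760469 on the minus strand (GRCm38).

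Csf2, which encodes GM-CSF and lies at chr11:54247271-54249667 (minus strand, GRCm38), was the lowest of the family. It was 0.403, 1.88 and 4.6 TPM at its lowest, median and highest in ErbB4FF and 1.13, 1.76 and 4.19 TPM in ErbB4myeKO. The groups overlapped over nearly their whole range, and both libraries of litter 1 were the highest of their groups. The difference on the log2 scale was 0.28 ± 0.43 (SD over 6 litters), with ErbB4myeKO higher in 4 of 6 litters (exact permutation p = 0.219; limma adjusted p = 0.668). The authors' mean for Csf2, taken on the natural log scale, stood for 7.29 normalized estimated counts per library, the smallest of the main transcripts of the family, so that its values rest on few reads. Litter accounted for 89.9% of the sum of squares of its log2 level, above the median of 78.1% over all genes tested, and genotype for 3.38%, beside a median of 2.49%.

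The mRNAs of Csf2 and Csf3 carry AU-rich elements in the 3′ UTR, repeats of ATTTA to which decay factors such as tristetraprolin bind. They are shown because these 2 mRNAs held the most copies in the family, and levels of tristetraprolin and other decay factors are given further on. The 3′ UTR of Csf2 has 317 bases, of which 63.4% are A or T, and it holds 9 copies of ATTTA (overlaps counted) and 4 of TTATTTATT. That of Csf3 has 669 bases with 6 copies of ATTTA. The long form of Csf1 holds 4, the 2 forms of Csf1r hold 2 and 3, and the short form of Csf1 and all transcripts of Csf2ra, Csf2rb, Csf2rb2 and Csf3r hold 0. The 30 bases with the most copies are given 5′ to 3′ with each ATTTA in capitals, from exon 4 of 4 of Csf2 at chr11:54247329-54247358 (minus strand) and from exon 5 of 5 of Csf3 at chr11:98702984-98703013 (plus strand), both on GRCm38 with sequence from GENCODE M21:
Csf2: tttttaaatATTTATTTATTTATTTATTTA
Csf3: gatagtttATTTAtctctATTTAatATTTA
The Csf2 window holds 5 overlapping copies without a break, and the Csf3 window holds 3 separate copies. The windows were read from the reference and show nothing about decay in these cells, which was not measured.

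Csf3, which encodes G-CSF, varied most among the 8 genes, with a coefficient of variation of 87.2% over the 12 libraries. It was 15.5, 24.4 and 97.1 TPM at its lowest, median and highest in ErbB4FF and 12.4, 38.2 and 151 TPM in ErbB4myeKO. The highest value in each group came from litter 6. The log2 ratio was 1.87, 0.92 and 0.64 in litters 2, 4 and 6 and -0.23, -0.80 and -0.75 in litters 1, 3 and 5, so that litters went in both directions by large amounts. The mean was 0.28 ± 1.05 (SD over 6 litters; exact permutation p = 0.594; limma adjusted p = 0.82), and it was -0.04 without litter 2. The 95% interval of the fold was 0.684 to 2.14. Across libraries, Il1f6, which encodes the IL-1 family cytokine IL-36α, had the level most like that of Csf3 (r = 0.949, 1.3 to 22.9 TPM), followed by Eaf1 (r = 0.936) and Stard5 (r = 0.930).

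Among the receptors, Csf1r was both the highest and nearly the same in the 2 genotypes. It was 168, 351 and 473 TPM at its lowest, median and highest in ErbB4FF and 200, 384 and 407 TPM in ErbB4myeKO. In both genotypes the lowest library was that of litter 5. The difference on the log2 scale was 0.05 ± 0.21 (SD over 6 litters; exact permutation p = 0.562; limma adjusted p = 0.864), and the 95% interval of the fold was 0.907 to 1.18, the second narrowest of the family. Of the sum of squares, 94.9% lay between litters and 0.333% with genotype. ENSMUST00000025523 held 96.8% of the level and ENSMUST00000115268, with a coding sequence of the same length, held 3.19%. The genes with the most similar level were Lpar1 (r = 0.974), which encodes a receptor for lysophosphatidic acid, Nlrp3 (r = 0.971), which encodes an inflammasome sensor, and Kcna3 (r = 0.970), which encodes a potassium channel.

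Csf2ra, the ligand-specific chain for GM-CSF at chr19:61223957-61228429 (minus strand, GRCm38), was 87.9, 103 and 218 TPM at its lowest, median and highest in ErbB4FF and 103, 124 and 140 TPM in ErbB4myeKO. The ErbB4FF library of litter 3 stood far above the others of its genotype. The log2 ratio was 0.27 to 0.40 in litters 1, 2, 4 and 5, but -0.63 in litter 3 and -0.21 in litter 6. Its mean was 0.09 ± 0.42 (SD over 6 litters; exact permutation p = 0.594; limma adjusted p = 0.861). Without litter 3 it was 0.24, the highest value with any litter left out. Litter accounted for 64.5% of the sum of squares, the smallest share of the family. The genes with the most similar level were Pdgfrl (r = 0.935), Zfp628 (r = 0.888) and Ccdc93 (r = 0.875), and the first of these was between 1.08 and 4.83 TPM.

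The 2 beta chains are neighbours on chr15, with Csf2rb2 at chr15:78282507-78305721 on the minus strand and Csf2rb at chr15:78325752-78353847 on the plus strand (GRCm38). Their coding sequences were 95.2% identical (126 mismatches over 2631 aligned bases), and the whole transcripts 90.9%. Of the 31-base words that kallisto matches, 30.2% of those of Csf2rb and 30.6% of those of Csf2rb2 occurred in another gene, mainly in each other, and 11% and 11.1% of words as long as a read of 75 bases did. To show how alike the reads are, the first 75 bases of the 2 coding sequences follow, from exon 2 of 14 of Csf2rb at chr15:78335207-78335281 (plus strand) and from exon 2 of 14 of Csf2rb2 at chr15:78298155-78298229 (minus strand), with sequence from GENCODE M21 (GRCm38) and the bases that differ in capitals:
Csf2rb: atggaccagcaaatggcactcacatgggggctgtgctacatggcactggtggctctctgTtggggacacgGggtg
Csf2rb2: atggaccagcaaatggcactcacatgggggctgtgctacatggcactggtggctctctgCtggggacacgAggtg
This window has 2 mismatches, which is the median over the 2261 windows of 75 bases without a gap. In 413 of those windows (18.3%) the 2 sequences were identical, and the most mismatches in a window was 14. A read from an identical window fits both genes, so their separate levels are uncertain to the extent that kallisto had to divide such reads, and their sum is the firmer value.

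Csf2rb was 74.9, 132 and 173 TPM at its lowest, median and highest in ErbB4FF and 82.0, 110 and 148 TPM in ErbB4myeKO. The difference was -0.12 ± 0.27 on the log2 scale (SD over 6 litters; exact permutation p = 0.375; limma adjusted p = 0.727), with 3 litters in each direction. Csf2rb2 was 59.4, 138 and 149 TPM in ErbB4FF and 62.9, 122 and 141 TPM in ErbB4myeKO. Its difference was -0.06 ± 0.15 (SD over 6 litters; exact permutation p = 0.438; limma adjusted p = 0.792), the smallest spread over litters in the family. The 95% interval of its fold was 0.859 to 1.07. Csf2rb2 contributed 46.8% ± 4.01 of the summed beta-chain TPM in ErbB4FF and 47.8% ± 4.84 in ErbB4myeKO (SD, n = 6; exact permutation p = 0.469), and between 41.4% and 53.7% in single libraries. Both paralogs were thus listed at comparable levels, with Csf2rb above Csf2rb2 in 9 of 12 libraries. The levels of the 2 chains rose and fell together over the libraries (r = 0.91) and in their ratios between littermates (r = 0.88, 6 litters), and the words they share are part of what both values are made from.

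The beta chains were low in litters 5 and 6. Litter accounted for 98.1% of the sum of squares of Csf2rb2, a share that 2.2% of all genes tested exceeded, and for 88.9% of that of Csf2rb, below the shares of Csf1r and Csf2. In the 4 libraries of litters 5 and 6, Csf2rb2 was 59.4 to 64.8 TPM, and in the 8 libraries of litters 1 to 4 it was 114 to 149 TPM. For Csf2rb the values were 74.9 to 91.7 and 98.6 to 173 TPM. The ranges of both genes did not overlap between these litters, and the share of all genes tested that separate in this way was not counted. Litters 5 and 6 were those with low Y-linked genes, and 2 of the 3 genes most like Csf2rb2 were the Y-linked Eif2s3y (r = 0.982) and Ddx3y (r = 0.981), after Ly6a (r = 0.984), which encodes the surface protein Sca-1. They were also the litters with a high sum over the 12 neutrophil markers, 155 to 376 TPM there and 41.3 to 74.5 TPM in litters 1 to 4. Retnlg, 1 of these markers, was at 0 in all libraries, and S100a8 and S100a9 contributed most. Ly6g, Elane, Mpo and Cxcr2 were at most 0.448, 0.377, 0.549 and 0.518 TPM in any library. Camp and Ngp reached 10.5 and 18.4 TPM, both in the ErbB4myeKO library of litter 5. These litters were grouped after their values had been seen. Litter, sex and cell content cannot be told apart here, and the part of each in the level of the beta chains was not tested. For Csf2rb the most similar levels were those of Med13l (r = 0.977), Tln1 (r = 0.970), which encodes the integrin-binding protein talin, and Stat3 (r = 0.955).

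For a GM-CSF receptor both kinds of chain are needed. In principal transcripts alone, the ratio of Csf2ra to the summed beta chains was 0.28 to 0.823 in ErbB4FF and 0.387 to 0.783 in ErbB4myeKO. The listed alpha chain was thus below the sum of both beta chains in each of the 12 libraries. Against Csf2rb alone, the common chain, Csf2ra was higher in 7 of 12 libraries. Within the ErbB4FF group the lowest ratio was in litter 2 and the highest in litter 6. Of the 31-base words of Csf2ra and of the main Csf2rb transcript, 100% occurred in another annotated transcript of the same gene. How reads were divided between principal and other transcripts is thus a limit of this ratio. The ligand of that receptor was the lowest member of the family, as given above.

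Csf3r, the G-CSF receptor at chr4:126024550-126044440 (plus strand, GRCm38), was lower in ErbB4myeKO in 5 of 6 litters. It was 23.2, 47.3 and 104 TPM at its lowest, median and highest in ErbB4FF and 17.7, 39.6 and 65.8 TPM in ErbB4myeKO, with means of 59.8 ± 33.7 and 41.8 ± 16.5 TPM (SD, n = 6). The 2 highest values of all 12 were those of the ErbB4FF libraries of litters 2 and 4 (99.2 and 104 TPM), against 34.9 and 65.8 TPM in their ErbB4myeKO littermates. The log2 ratio was -1.49, -0.38 and -0.66 in litters 2, 3 and 4, while it was between -0.07 and 0.10 in litters 1, 5 and 6. Its mean was -0.43 ± 0.59 (SD over 6 litters; exact permutation p = 0.125; limma p = 0.0706, adjusted p = 0.603), or 0.744-fold with a 95% interval of 0.536 to 1.03. Without litter 2 it was -0.21. The level was the sum of ENSMUST00000030673 (69.4%) and ENSMUST00000106162 (30.6%), which have a coding sequence of the same length, 2514 bases. Of the 31-base words of the 2 forms, 26.9% and 24.4% occurred in another gene, chiefly in the pseudogene AC105061.2, but only 3.53% and 3.2% of words of 75 bases did.

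Of all marker lists compared, Csf3r moved most closely with 1, which is given because its r was the largest for this gene. The summed TPM of 8 mast cell and basophil markers was 11.5 to 42.1 in ErbB4myeKO and 20.9 to 48.0 in ErbB4FF, and across the 12 libraries it had r = 0.89 and rho = 0.78 with the level of Csf3r. Nearly all of that sum was Hdc, the histamine-forming enzyme, at 11.4 to 47.0 TPM, whereas the defining markers Fcer1a and Ms4a2 were at 0 in every library. Hdc and the sum were lower in ErbB4myeKO in 6 of 6 litters (Hdc by a log2 mean of -0.40, exact permutation p = 0.0312; limma adjusted p = 0.603), and the sum moved in the same direction as Csf3r between littermates in 5 of 6 litters. The part of this list in the level of Csf3r was not tested. With the neutrophil list, whose cells carry the G-CSF receptor, Csf3r had r = 0.09. The genes with the most similar level were Slc12a7 (r = 0.968), a potassium and chloride cotransporter, Ehd4 (r = 0.960) and Mxd1 (r = 0.955), which encodes a dimer partner of Max.

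G-CSF and its receptor were high in different libraries. The ratio of Csf3r to Csf3 was between 0.284 and 6.74 over the 12 libraries, with the highest values in the ErbB4FF libraries of litters 2 and 4 (6.10 and 6.74) and the lowest in the ErbB4myeKO library of litter 6 and the ErbB4FF library of litter 3. The log2 levels had r = -0.53 over 12 libraries that share litters, and the log2 ratios between littermates had r = -0.80 over 6 litters. In litter 2, Csf3 was 60.7 TPM in ErbB4myeKO against 16.3 TPM in ErbB4FF, with Csf3r at 34.9 against 99.2 TPM. Among all pairs of members, the largest littermate correlations in absolute size were that of Csf2rb with Csf2rb2, that of Csf3 with Csf3r and that of Csf2 with Csf1r (r = 0.80). The last had r = -0.19 over the levels, and 6 points give each such value little weight. Csf1r exceeded Csf1 in every library, by a ratio of 6.34 to 27.3 in ErbB4myeKO and 7.22 to 59.1 in ErbB4FF.

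**Figure D3:**
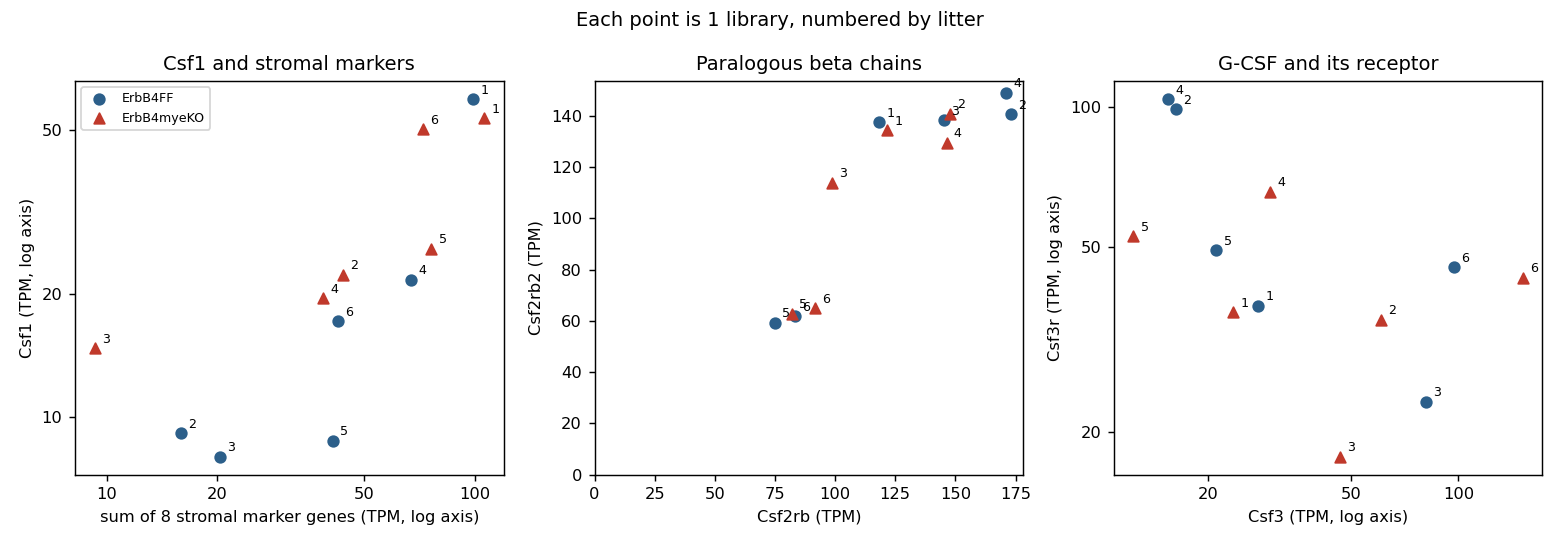
Levels in TPM of pairs of quantities in the 12 libraries, each point being 1 library numbered by its litter, with ErbB4FF as blue circles and ErbB4myeKO as red triangles. Csf1 against the summed stromal markers (left, log axes) has r = 0.77, Csf2rb2 against Csf2rb (middle, linear axes from 0) has r = 0.91 with litters 5 and 6 apart at the low end, and Csf3r against Csf3 (right, log axes) has r = -0.53.

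Ligands and receptors close to the family were mostly low. Of 9 such genes, 2 reached a mean of 1 TPM, and both were higher in ErbB4myeKO, 1 of them at an unadjusted p under 0.05 (background for higher genes 3.83%). Il3ra, the specific alpha chain of the IL-3 receptor that pairs with the beta chains above, was 15.1 ± 3.62 TPM in ErbB4myeKO and 10.3 ± 5.20 TPM in ErbB4FF (SD, n = 6). It was higher in 6 of 6 litters, by 0.67 on the log2 scale (exact permutation p = 0.0312, the smallest that 6 litters allow; limma adjusted p = 0.603). Kitl, the ligand of the receptor Kit, was 4.65 ± 0.945 and 3.37 ± 1.16 TPM (SD, n = 6). Il3 was listed at 0 in all libraries, and Il34, the other ligand of the M-CSF receptor, was at most 0.861 TPM.

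Of the genes that act just below the receptors, 15 were lower and 7 higher in ErbB4myeKO among 22 tested of 23, with a median log2 difference of -0.17 beside -0.00 over all genes tested. No gene of the list passed the adjusted threshold in limma, while 4 lower genes and 1 higher gene had an unadjusted p under 0.05, beside backgrounds of 4.38% and 3.83%. Stat5b, a transcription factor downstream of GM-CSF, was 16.9 ± 5.06 TPM in ErbB4myeKO and 20.8 ± 7.76 TPM in ErbB4FF (SD, n = 6), lower in 5 of 6 litters by a log2 mean of -0.27 (exact permutation p = 0.0625). Stat5b was singled out in the study from these same libraries, so that its place in the list is not independent evidence. The study also reported less Stat5b protein by Western blot, which these libraries do not measure. Lower genes at an unadjusted p under 0.05 also included the adaptor Grb2 (-0.19, lower in 6 of 6 litters) and the PI3K regulatory subunit Pik3r5 (-0.23), which were chosen after their values were seen. Stat3, which relays G-CSF signals, was at 199 ± 64.2 against 222 ± 72.3 TPM (SD, n = 6) and lower in 6 of 6 litters, by a log2 mean of -0.15 (exact permutation p = 0.0312; limma p = 0.067). Jak2, the kinase bound to the beta chain, was 220 ± 73.2 and 217 ± 71.7 TPM (SD, n = 6), a log2 difference of 0.02. Tyk2 was the higher gene (1.03, higher in 5 of 6 litters), and it was listed at 0 in 2 libraries and reached 27.3 TPM in litter 5.

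Inhibitors and turnover factors did not lean to 1 side. Of 13 genes, 12 were tested, 7 were higher and 5 lower, and the median difference was 0.03. Both genes with an unadjusted p under 0.05 in limma were higher in ErbB4myeKO, beside the background of 3.83%. Inpp5d, the lipid phosphatase SHIP1, was 3.59 ± 2.62 against 1.93 ± 2.30 TPM (SD, n = 6), a log2 difference of 1.10 (exact permutation p = 0.0625). Adam17, the protease that sheds the M-CSF receptor, was 113 ± 28.5 against 102 ± 28.0 TPM, a log2 difference of 0.16 (exact permutation p = 0.0625). Inpp5d was near 0 in the ErbB4FF libraries of litters 3 and 5. Socs3, the inhibitor that binds the G-CSF receptor, was the highest of the list at 432 ± 88.0 and 470 ± 86.0 TPM (SD, n = 6), a difference of -0.12, and the phosphatase Ptpn6 differed by -0.17.

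Of 11 transcription factors of the macrophage lineage, 10 were tested, 4 were higher and 6 lower, with a median of -0.09 and 2 lower genes at an unadjusted p under 0.05 (background 4.38%), Maf and Fli1. Maf, a bZIP factor of mature macrophages, was 36.4 ± 3.84 TPM in ErbB4myeKO and 47.3 ± 11.3 TPM in ErbB4FF (SD, n = 6; log2 difference -0.34, exact permutation p = 0.0938, lower in 5 of 6 litters). Fli1, an Ets-family factor, was low, at 2.03 ± 0.718 and 2.84 ± 1.02 TPM (log2 difference -0.38, exact permutation p = 0.0625). Spi1, which encodes PU.1, an activator of Csf1r, was 246 ± 74.5 and 272 ± 59.5 TPM (SD, n = 6; log2 difference -0.17), and Irf8 differed by 0.02. None of the 10 had an adjusted p under 0.603 in limma.

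Known targets of the factors were few. Of 9 genes known as GM-CSF targets, 6 were tested, 5 were higher and 1 lower, with a median log2 difference of 0.30 and 1 higher gene at an unadjusted p under 0.05 (background 3.83%). The 3 not tested, for their low level, were Irf4, Ccl17 and Pparg, and Pparg was 0.636 ± 0.503 TPM in ErbB4myeKO against 1.14 ± 0.429 TPM in ErbB4FF (SD, n = 6) and lower in 5 of 6 litters (exact permutation p = 0.219). The gene called before adjustment, the chemokine Ccl22, was 142 ± 81.9 TPM in ErbB4myeKO and 103 ± 50.3 TPM in ErbB4FF (SD, n = 6; log2 difference 0.41, exact permutation p = 0.0938, higher in 5 of 6 litters). Bhlhe40, a transcriptional regulator, differed by 0.39 (exact permutation p = 0.219), and Batf3, a factor of dendritic cells, by -0.43 with ErbB4myeKO lower in 6 of 6 litters (exact permutation p = 0.0312; limma p = 0.0529). Ccl22 and Batf3 are also expressed by dendritic cells, whose 9 markers summed to 44.5 to 122 TPM in ErbB4myeKO and 31.3 to 94.0 TPM in ErbB4FF with Cd209a and Siglech at 0 in all libraries, and their part in these values was not tested. Of 9 genes known as M-CSF targets, 8 were tested, 3 were higher and 5 lower, with a median of -0.03 and none at an unadjusted p under 0.05. Apoe, the lipid carrier, was 4494 ± 1577 and 4290 ± 1513 TPM (SD, n = 6), and the chemokine Ccl2 was 499.9 ± 393 and 463 ± 306 TPM. Cd9, a tetraspanin, differed by 0.44 (exact permutation p = 0.125) and Fcrls, an Fc receptor-like gene, by -0.40 (exact permutation p = 0.469).

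Proteins known to regulate the decay of cytokine mRNAs such as Csf2 and Csf3, through AU-rich or other elements, had 4 genes higher and 4 lower among 8 tested of 10, with a median of -0.01 and none at an unadjusted p under 0.05. Zfp36, which encodes tristetraprolin, was 21.4 ± 5.92 TPM in ErbB4myeKO and 24.1 ± 8.92 TPM in ErbB4FF (SD, n = 6; log2 difference -0.14, exact permutation p = 0.469). Its relatives Zfp36l1 and Zfp36l2 differed by -0.05 and -0.17, and these 3 genes were added to those the naming rule selects. Zc3h12a, the ribonuclease Regnase-1, was 96.1 ± 16.0 and 96.7 ± 21.5 TPM (SD, n = 6; log2 difference 0.00). Elavl1, the stabilizing protein HuR, was 51.6 ± 6.31 and 47.7 ± 6.10 TPM (log2 difference 0.12, exact permutation p = 0.188). Rc3h1, which encodes roquin, differed by 0.25 (exact permutation p = 0.0938) and Cpeb4 by 0.31 (exact permutation p = 0.25). Across libraries, genes with a level much like that of Csf2 were B4galt1 (r = 0.934), which encodes a galactosyltransferase, and Tubb6 (r = 0.877), which encodes a tubulin, and neither is on that list.

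**Figure D4:**
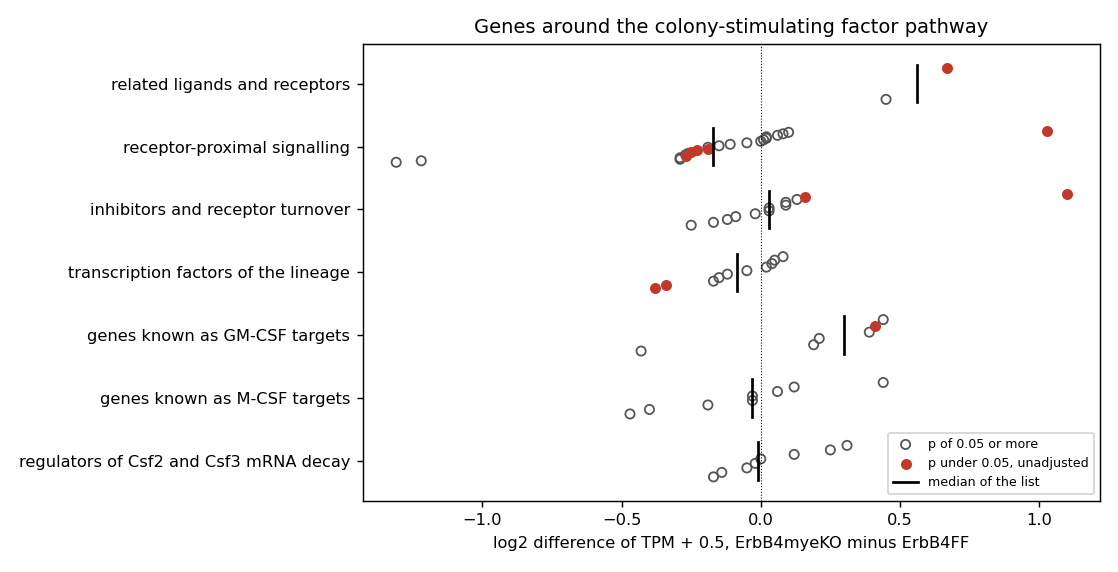
Log2 difference of TPM plus 0.5 between ErbB4myeKO and ErbB4FF (x axis, limma with litter as a block) for each tested gene of 7 lists around the family (rows), with filled red points at an unadjusted p under 0.05 and a black bar at the median of the list. The medians lie between -0.17 for receptor-proximal signalling and 0.56 for related ligands and receptors, which holds only 2 tested genes, and no point passed the adjusted threshold.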

How the data were processed

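RNA of 12 M1-activated BM-Mɸ cultures, 1 library each, had been sequenced as single-end reads of 75 bases from a stranded kit for polyadenylated RNA. Abundances in TPM, estimated by the authors with kallisto, were deposited for transcripts marked as principal isoforms by APPRIS (28808 transcripts). Per the submitters' processing notes, CASAVA, kallisto, sleuth and the build mm10 were used. Their versions and the transcriptome release are not given in the sources used here. The authors also deposited the mean natural log of normalized estimated counts from sleuth, which was used only as a description, and columns of their own p-values, q-values and fold changes, which were not used. Principal isoforms held 59.0% to 74.7% of the TPM of a library, and between 10214 and 12985 genes were above 0.

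TPM were summed per gene, repeated lines of a transcript being dropped. Genes averaging 1 TPM or more (8780) entered limma 3.58.1 as log2(TPM + 0.5), with trend and litter as a block, p-values were adjusted by Benjamini-Hochberg, and fold changes are on that scale, which understates changes of low genes. Litter came from the labels (batch and number), the design text places 1 animal of each genotype in each litter, and log2 values of littermates correlated at 0.273 to 0.774 after centring each gene. The study adjusted its own test for litter and sex, but the labels do not give sex, so a covariate from Y-linked genes was an alternative. Littermates had nearly equal Y-linked levels, so that beside the litter block this covariate does not test the effect of sex. Single genes were also tested by two-sided exact permutation, swapping genotypes within litters in all 64 ways (smallest p = 0.0312). Shared words, identities and elements came from GENCODE M21 (GRCm38). The fit was tested on simulated data of 8780 genes with 200 changed and independent normal noise. It recovered 71% where the simulated log2 change was 1 and 91% where it was 2, with 11 unchanged genes among 173 calls. Both sizes exceed the difference of every member (at most 0.80, for Csf1), so these rates do not give the power for the family. R 4.3.3 and Python 3.11.15 were used.

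The members and lists were chosen with earlier results of these data known. Named are the 8 members, the check gene Erbb4, from each list the 2 genes with the smallest p and the 2 with the highest mean (none passed the adjusted threshold), and the 3 genes with the highest Pearson r to each member, without predicted genes. Some results that this rule selects are not reported here. Any other gene is named as a marker or was chosen after its values were seen. Alternatives were no block for litter, another pseudocount, filter, scaling or trend, the transcript with the highest mean in place of the sum, the Y-linked covariate and each litter left out. A fit of litters 1 to 4 alone was added after seeing the data. Protein sequences were not analysed here.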

Additional observations from a re-analysis of the deposited data

Results flagged for a closer look

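In each group of 6 libraries, the gap between the highest or lowest value and its nearest neighbour was compared with the range of the group by Dixon's criterion at the 95% level. Of 16 groups (8 genes in 2 genotypes), 2 passed on the log2 scale, and chance flags about 1 group in 20. Csf1r in the ErbB4myeKO library of litter 5 was 200 TPM, below the next lowest of its group at 319 TPM (gap 0.655 of the log2 range). Its ErbB4FF littermate, at 168 TPM, was also the lowest of its group, with a gap of 0.556 of the log2 range. Csf2ra in the ErbB4FF library of litter 3 was 218 TPM, above the next at 119.6 TPM (gap 0.661 of the log2 range). Its ErbB4myeKO littermate, at 140 TPM, was the highest of its own group. In both cases the library of the other genotype in the same litter lay at the same end of its group.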

How the results depend on the processing

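No gene had an adjusted p under 0.05 in the limma fit with litter as a block (721 at an unadjusted p under 0.05), and leaving out 1 litter gave 0 to 1 such genes, the 1 gene coming without litter 3 (smallest adjusted p = 0.0486). The count at an unadjusted p under 0.05 was 410 to 860 with 1 litter left out, with 410 without litter 2 and 455 without litter 4, and 75 with no replicate block, a fit that ignores the pairing of littermates. No pairing choice changed the adjusted call of a member. For the 8 genes, the genotype difference kept its direction and its side of the adjusted threshold under all alternatives run, except that Csf3 reversed to -0.04 without litter 2. With 1 litter left out, the log2 difference was 0.66 to 0.99 for Csf1, 0.17 to 0.36 for Csf2, -0.04 to 0.49 for Csf3, 0.00 to 0.11 for Csf1r, 0.03 to 0.24 for Csf2ra, -0.17 to -0.03 for Csf2rb, -0.09 to -0.02 for Csf2rb2 and -0.53 to -0.21 for Csf3r. The share of Csf2rb2 differed by 0.237 to 1.46 percentage points. In litters 1 to 4 alone, added after seeing the data, Csf3r differed by -0.65 and Csf1 by 0.44, of which Csf3r then had an unadjusted limma p under 0.05 and Csf1 did not. The unadjusted limma p of Csf1 was between 0.00641 and 0.175 over the alternatives, above 0.05 without litter 5, without litter 6, in litters 1 to 4 alone and without the block (0.123), and that of Csf3r (0.0706 with all litters) was under 0.05 without litter 5 (0.0457). Csf2 has no value under the filter of 5 TPM, since its mean is below it. Scaling moved the median of all genes to between -0.010 and 0.020. The causes were not tested. The table carries no depth, so for Csf2, with few reads, precision is limited in a way the values do not show.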
